A study of Mus musculus with 6 samples.

Results

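The contractile genes examined here are 10 genes of the actomyosin apparatus of smooth muscle and mural cells, Acta2, Actg2, Myh11, Myl9, Mylk, Tagln, Cnn1, Tpm1, Tpm2 and Des. They were chosen by name out of the 19069 genes listed on the plates, and all 10 were listed on each of the 6 plates. The study sequenced single cells of colon tumours raised in mice with the mutagen azoxymethane and the colitis-inducing agent dextran sodium sulfate (AOM/DSS). Cells negative for EPCAM, CD45 and CD31, which mark epithelial, blood and endothelial cells, were index-sorted into 384-well plates, with 1 plate for each of 6 mice. 3 mice carried floxed Zeb1 alleles and no Col6a1-Cre transgene and are called Fib-Ctrl mouse 1 to 3. The other 3 mice also carried the Col6a1-Cre transgene, so that Zeb1, a transcription factor of epithelial-mesenchymal transition, was deleted in fibroblasts (Fib-dZeb1 mouse 1 to 3). Animals of both groups were on a C57BL/6 background, carried tumours and were given the same AOM/DSS regimen, so no group here shows the untreated colon. The labels name no further treatment. Col6a1-Cre is active in part of the mesenchymal cells of the gut, so not every sorted cell of a Fib-dZeb1 mouse has to carry the deletion.

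Contractile cells pull with filaments of smooth muscle actin and smooth muscle myosin. Calcium activates myosin light chain kinase, which phosphorylates the regulatory light chain, and tropomyosin, calponin and transgelin sit along the actin filament. Serum response factor and its myocardin-family partners drive many of these genes through a short promoter element, the CArG box. Smooth muscle cells hold most of the set, and pericytes, which wrap small vessels, hold a part of it that varies. Subepithelial telocytes and myofibroblasts of the gut, which lie against the crypts, hold part of it, and tumour-associated fibroblasts with high Acta2 are often called myofibroblastic.

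The 10 genes lie on 7 mouse chromosomes of GRCm38 (GENCODE vM21). The actins are Acta2 (chr19:34241090-34255590, minus strand) and Actg2 (chr6:83512905-83536265, minus strand). The myosin chain Myh11 (chr16:14194535-14291372, minus strand) and the kinase Mylk (chr16:34745210-35002420, plus strand) share a chromosome, and Myl9 is at chr2:156775420-156781658 on the plus strand. Tagln (chr9:45929619-45936058, minus strand), Cnn1 (chr9:22099216-22109630, plus strand) and Tpm1 (chr9:67022590-67049406, minus strand) share chromosome 9. Tpm2 is at chr4:43514711-43523765 on the minus strand and Des at chr1:75360329-75368579 on the plus strand. All 10 are protein coding.

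Promoter letters are shown for the members whose window held a CArG box, since this element is the known control shared by the set. 7 of the 10 members had an entry among the 32851 promoters of the RefSeq-derived table (GRCm38.p6, 250 bases before to 50 bases after the start), and Actg2, Myh11 and Tagln did not. An exact CArG box, searched on both strands, was found in 1.63% of all promoters, and an exact box or one with 1 inner base off in 9.98%. Of the 7 members, 1 held an exact box (Myl9) and 2 held an exact or near box (Myl9 and Acta2). In the lines below the 10 bases of the box are in capitals inside a window of 30 bases, read along the strand of the gene. The first Myl9 line is the exact box and the others have 5 of the 6 inner bases. A match of letters is a description and not a binding site.
Myl9, box at -161 from the start, chr2:156775293-156775322, plus strand: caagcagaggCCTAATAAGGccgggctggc
Myl9, box at -99, chr2:156775355-156775384, plus strand: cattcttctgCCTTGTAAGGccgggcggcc
Acta2, box at -84, chr19:34255438-34255467, minus strand: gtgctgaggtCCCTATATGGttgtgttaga
Acta2, box at -34, chr19:34255388-34255417, minus strand: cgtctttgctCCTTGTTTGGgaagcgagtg

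Of 2304 wells, 1233 had 100 to 6000 genes and less than 10% of their transcripts from mitochondrial genes, with 109 to 298 such wells per mouse. All 384 well names are shared by the 6 plates, so a well was always identified by its plate. The 82 wells with fewer than 100 genes held 0 to 6 transcripts of the 10 genes per plate. Wells were put into classes by marker genes that are not among the 10. A pericyte-like well had transcripts of both Rgs5 and Notch3, at least 3 in all. A telocyte-like well had at least 2 of Wnt5a, Bmp7 and Nrg1, and an iCAF-like (inflammatory fibroblast) well at least 2 of Pi16, Ptx3 and Sfrp4. The remaining wells with at least 3 of 6 fibroblast genes were called other fibroblast-like, and immune and epithelial wells that had passed the sort were set apart. The classes held 87 pericyte-like, 188 telocyte-like, 88 iCAF-like, 288 other fibroblast-like, 87 epithelial and 472 immune wells, and 23 wells had no class. Pericyte-like wells numbered 16, 3 and 12 in Fib-Ctrl mouse 1 to 3 and 48, 5 and 3 in Fib-dZeb1 mouse 1 to 3. The median depth was 11362 transcripts in pericyte-like, 15340 in telocyte-like, 12105 in iCAF-like, 7978 in other fibroblast-like and 1573 in immune wells.

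Marker genes that took no part in the sorting of wells were used to check the names. All 8 pericyte genes on the check list, among them Pdgfrb, Cspg4 and Kcnj8, had their highest level in pericyte-like wells. All 8 telocyte genes, among them Foxl1 and Bmp5, were highest in telocyte-like wells, and 7 of 8 iCAF genes were highest in iCAF-like wells. Of 6 smooth muscle genes outside the members, 5 were highest in pericyte-like wells, where their summed level was 212 to 322 CPM (transcripts of a gene per 1000000 transcripts of the class, spike-ins left out). The sixth, Hhip, was highest in other fibroblast-like wells. Of 5 endothelial genes, 2 were highest in pericyte-like wells, where the list summed to 0 to 146 CPM. 1 of 2 genes of interstitial cells of Cajal was also highest there, with a sum of 317 to 880 CPM. All 3 glia genes were highest in other fibroblast-like wells, with a sum of 0 to 824 CPM. Of 5 general fibroblast genes, 1 was highest in that class, 2 in telocyte-like and 2 in iCAF-like wells. Vascular smooth muscle cells and pericytes share most of the pericyte and smooth muscle genes and cannot be told apart by them. Few pericyte-like wells lay near the edge of the gate. The 2 with the fewest gate transcripts (3 to 5) had a median of 0.156% of their transcripts from the 10 genes. Outside the gate, 20 mesenchymal wells had 2 or more transcripts of Rgs5 and Notch3 together, with no upper limit set. Their median was 0.143%, and they reached 1.71%.

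The pericyte-like cells had the highest summed level of the 10 genes. Over the 4 mice with at least 5 such cells it was 12341 ± 2614 CPM (SD, n = 4), against 3450 ± 1116 in telocyte-like cells (n = 6), 1830 ± 1709 in other fibroblast-like cells (n = 6) and 607 ± 222 in iCAF-like cells (n = 3). The ratio of the mean pericyte-like to the mean telocyte-like level in these 4 mice was 3.64. Within single mice the ratio ran from 2.45 to 5.12, with an SD of 1.40 (n = 4). It was lower in both Fib-Ctrl mice than in both Fib-dZeb1 mice. Epithelial wells stood at 1013 ± 536 CPM (n = 4) and immune wells at 943 ± 1016 (n = 6). Since the wells were classed by measured genes and the 10 genes were chosen for this pattern, differences between classes are descriptions and were given no test. Levels are compared for 1 gene across classes and not between genes.

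Acta2, smooth muscle α-actin, stood at 2327, 4119, 5268 and 4175 CPM in the pericyte-like cells of Fib-Ctrl mouse 1, Fib-Ctrl mouse 3, Fib-dZeb1 mouse 1 and Fib-dZeb1 mouse 2. Its telocyte-like level ran from 297 over a median of 1028 to 1500 CPM in the 6 mice. The lowest pericyte-like value was above the highest telocyte-like value, and all 4 mice had the same order. Acta2 was at 450 ± 503 CPM in other fibroblast-like cells (n = 6) and at 85.8 ± 77.2 in iCAF-like cells (n = 3). In order of the means, telocyte-like, other fibroblast-like, immune, epithelial and iCAF-like cells followed the pericyte-like cells, and each of these neighbours overlapped the next in range. Actg2, the γ-actin of enteric smooth muscle, was less even. In the same 4 mice its pericyte-like level was 311, 535, 891 and 0 CPM, and its telocyte-like level ran from 6.32 over 86.0 to 384 CPM. These ranges overlapped, and 3 of 4 mice had more Actg2 in pericyte-like cells.

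Of the myosin genes, Myh11, the heavy chain of smooth muscle myosin, separated the pericyte-like cells most from the telocyte-like cells. Its pericyte-like level was 918, 676, 736 and 733 CPM in these 4 mice, and its telocyte-like level ran from 0 over 60.8 to 70.5 CPM. The mean was 765 CPM against 46.2, which left telocyte-like cells below the mean of other fibroblast-like cells (184 ± 231, n = 6). Myl9, the regulatory light chain, had pericyte-like levels of 792, 1079, 779 and 3215 CPM, the highest of them in the 5 cells of Fib-dZeb1 mouse 2. In telocyte-like cells Myl9 ran from 75.8 over 227 to 440 CPM. Mylk, the light chain kinase, was at 902, 1034, 1258 and 1970 CPM in pericyte-like cells and at 107 to 484 CPM, with a median of 253, in telocyte-like cells. For Myl9 and Mylk the telocyte-like level was above the other fibroblast-like level in 6 of 6 mice, whereas for Myh11 it was above in 3 of 6.

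Among the actin-binding members, Tagln (transgelin) had pericyte-like levels of 925, 824, 1734 and 998 CPM in these 4 mice and telocyte-like levels of 18.9 to 680 CPM, with a median of 290. Tpm1, a tropomyosin, had the smallest step between classes. It stood at 1532, 1835, 2172 and 2298 CPM in pericyte-like cells and at 966 to 1405 CPM, with a median of 1304, in telocyte-like cells, a ratio of means of 1.61. It was also found in epithelial wells at 710 ± 537 CPM (n = 4). Tpm2, the other tropomyosin of the set, was at 565, 799, 1006 and 587 CPM in pericyte-like cells and at 214 ± 37.1 in telocyte-like cells (n = 6), a level close to the 208 ± 169 of other fibroblast-like cells. Cnn1, smooth muscle calponin, was scarce in every class. Its pericyte-like level was 6.87, 0, 70.7 and 0 CPM, and its mean of 19.4 ± 34.3 (n = 4) overlapped the 20.3 ± 27.9 of other fibroblast-like cells (n = 6).

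Des, desmin, the intermediate filament protein of muscle and pericytes, was the member most restricted among the mesenchymal classes. Its level was 730, 608, 607 and 351 CPM in the pericyte-like cells of the 4 mice. Telocyte-like cells of the 6 mice had 0 to 15.3 CPM, with a median of 4.03. Other fibroblast-like cells had 40.2 ± 60.2 CPM (n = 6), and iCAF-like cells 35.9 ± 59.1 (n = 3). Both of these means rest on Fib-dZeb1 mouse 2, which had 150 CPM in other fibroblast-like and 104 CPM in iCAF-like cells, while the other mice had 0 to 71.9 and 0 to 3.57 CPM in those classes among those with at least 5 cells. At full depth, 82 of 87 pericyte-like wells had a Des transcript. The 5 wells without one, chosen after the values were seen, had 1121 CPM of Acta2 and 1371 of Myh11, against 4775 and 760 CPM in the 82 wells with Des.

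**Figure D1:**
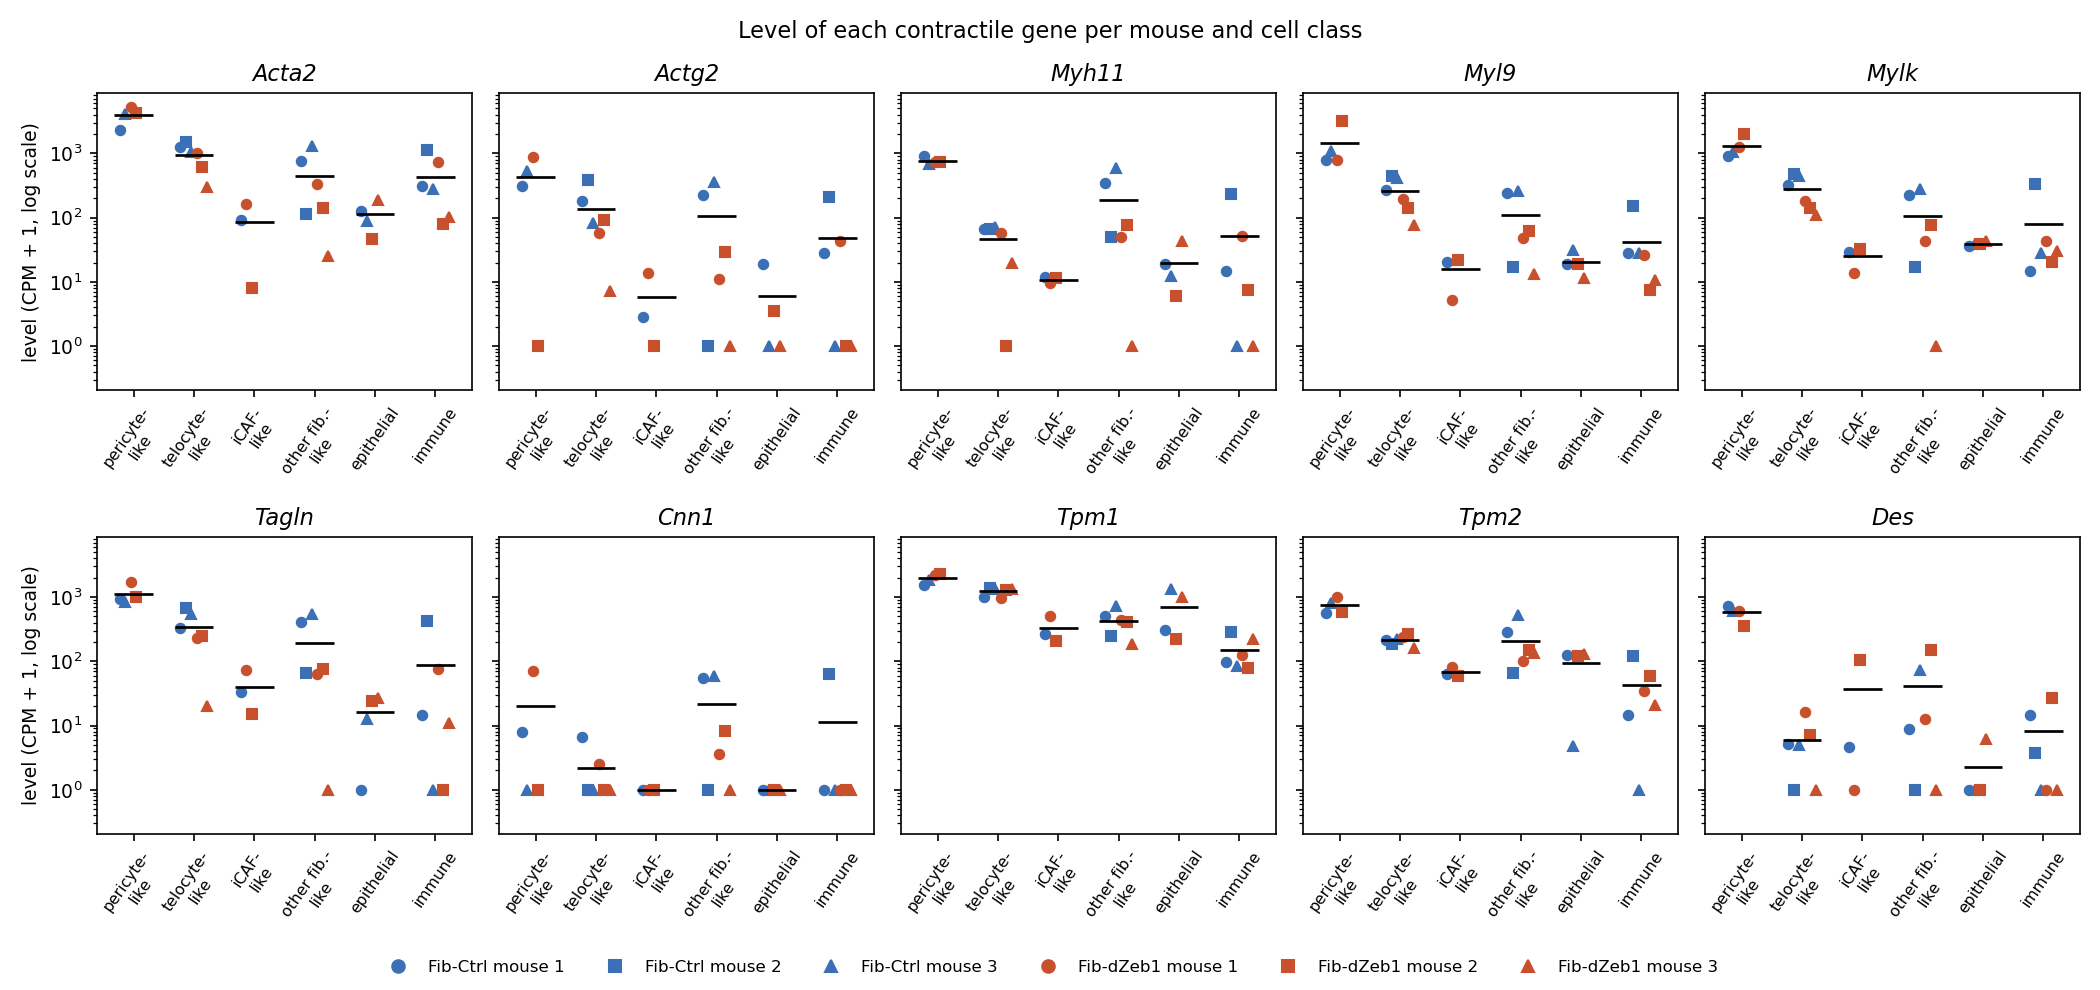
Level of each of the 10 contractile genes, in CPM plus 1 on a log axis, per cell class. Each point is 1 mouse with at least 5 cells of the class (blue, Fib-Ctrl; red, Fib-dZeb1; shape, mouse number) and the bar is the mean over mice. For Acta2, the pericyte-like points lie between 2327 and 5268 CPM and the telocyte-like points between 297 and 1500 CPM.

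Stray RNA can put transcripts into wells whose cell does not make them, so the immune wells of the same plates served as a background. Their Acta2 level was 314, 1107 and 276 CPM in Fib-Ctrl mouse 1 to 3 and 728, 78.8 and 103 CPM in Fib-dZeb1 mouse 1 to 3. In Fib-Ctrl mouse 2, 1 immune well of 24205 transcripts held 337 of Acta2, and without it the level fell from 1107 to 193.9 CPM. The mean of immune wells was 434 ± 404 CPM with that well and 282 ± 237 CPM without it (n = 6), against 450 CPM in other fibroblast-like and 85.8 CPM in iCAF-like cells. Set against the immune wells of the same plate, Acta2 was higher in pericyte-like cells in 4 of 4 mice, in telocyte-like cells in 6 of 6, in other fibroblast-like cells in 3 of 6 and in iCAF-like cells in 0 of 3. Other fibroblast-like cells were above the immune wells in Fib-Ctrl mouse 1 (765 CPM), Fib-Ctrl mouse 3 (1322 CPM) and Fib-dZeb1 mouse 2 (141 CPM), and these counts were the same without that immune well.

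To compare cells of unequal depth, each cell was thinned to 1000 barcodes, and shallower cells were left out (0 pericyte-like, 0 telocyte-like, 0 iCAF-like, 26 other fibroblast-like, 4 epithelial and 136 immune wells). Each cell was drawn once, and all shares below use that draw. Ranges in parentheses are exact binomial intervals (Clopper-Pearson, 95%), and the upper limit for a count of 0 is 3 cells of the total. Both cover counting error only. Acta2 was found in 75.9% of pericyte-like cells (65.5 to 84.4%), 38.8% of telocyte-like cells (31.8 to 46.2%), 17.2% of other fibroblast-like cells, 7.95% of iCAF-like cells and 19.9% of immune wells (15.8 to 24.6%; 4.76 to 46.0% over mice). The shares of other fibroblast-like and iCAF-like cells as whole classes were not above that of the immune wells. Immune wells had a median of 1573 transcripts, against 7978 and 12105 in these classes and 15340 in telocyte-like cells. The same amount of stray RNA would be a larger part of a shallower well, and thinning does not undo this. A share near that of the immune wells therefore cannot show that Acta2 is at background in a deeper class. Within plates the telocyte-like share was above the immune share in 5 of 6 mice, in 2 of them by little. It was 38.1, 55.6 and 33.3% against 20, 19.0 and 31.2% in Fib-Ctrl mouse 1 to 3 and 43.6, 36.4 and 11.1% against 46, 4.76 and 9.09% in Fib-dZeb1 mouse 1 to 3. By share of cells, Acta2 was thus not above the immune wells in the telocyte-like cells of Fib-dZeb1 mouse 1. In those of Fib-Ctrl mouse 3 and Fib-dZeb1 mouse 3 it was not separable from them. Its level in CPM was above that of the immune wells in the telocyte-like cells of 6 of 6 mice. Without thinning, Acta2 was found in 95.4% of pericyte-like cells. Tagln had less background, with 50.6% of pericyte-like, 17.0% of telocyte-like, 9.16% of other fibroblast-like, 3.41% of iCAF-like and 2.38% of immune cells. The pericyte-like share of Tagln rests on Fib-dZeb1 mouse 1, with 68.8% against 25 to 40% in the other 5 mice, and was 28.2% without that mouse.

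Des was in 37.9% of pericyte-like cells (27.7 to 49.0%) and in 1 of 188 telocyte-like cells (0.53%). Cnn1 was in 2.30% of pericyte-like cells and in 0 of 188 telocyte-like cells, which allows a share of up to 1.60%. Without Fib-dZeb1 mouse 1, the telocyte-like share of Des was 0.909% and the pericyte-like share of Actg2 15.4% instead of 27.6%. The remaining members ran from 27.6% (Actg2) to 80.5% (Tpm1) in pericyte-like cells and from 4.79% (Myh11) to 54.8% (Tpm1) in telocyte-like cells. Every member was detected in a larger share of pericyte-like than of telocyte-like cells. For Cnn1 this rests on 2 pericyte-like cells of Fib-dZeb1 mouse 1. Without that mouse, Cnn1 was in 0 of 39 pericyte-like cells.

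**Figure D2:**
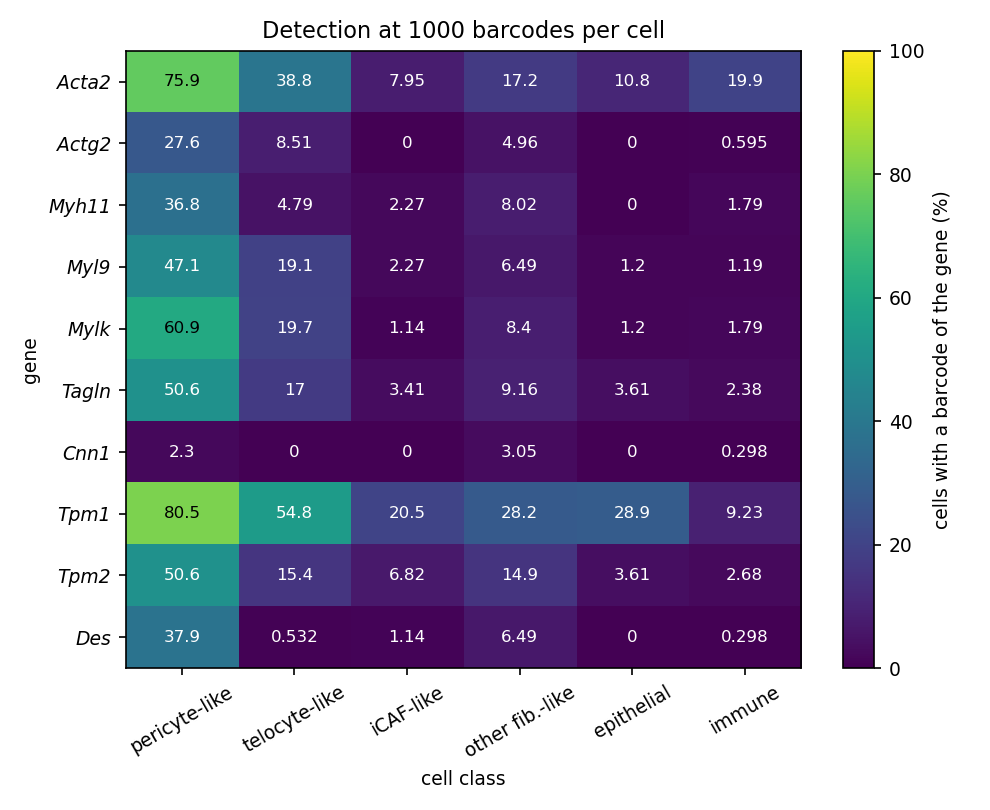
Share of cells (%) with at least 1 barcode of each gene, by cell class, after each cell was thinned to 1000 barcodes. The number in each field is the share. Acta2 falls from 75.9% of pericyte-like to 38.8% of telocyte-like cells and 19.9% of immune wells, and Des from 37.9% to 0.53% and 0.30%.

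The members were also found together more often per cell in the pericyte-like class. At 1000 barcodes a pericyte-like cell had 4.70 of the 10 genes on average, a telocyte-like cell 1.79, an other fibroblast-like cell 1.07, an iCAF-like cell 0.455 and an immune well 0.402. At least 4 members were found in 67.8% of pericyte-like, 13.8% of telocyte-like, 7.25% of other fibroblast-like and 0.595% of immune cells, and in 0 of 88 iCAF-like cells, which allows up to 3.41%. Acta2 and Tagln were found together in 48.3% of pericyte-like cells (37.4 to 59.2%) and 11.2% of telocyte-like cells (7.05 to 16.6%). The pericyte-like share was 66.7% in Fib-dZeb1 mouse 1 and 18.8 to 40% in the other 5 mice, and 25.6% without Fib-dZeb1 mouse 1. Averaged over all possible draws, the share was 46.3% of pericyte-like and 13.4% of telocyte-like cells. The pair was found in 6.49% of other fibroblast-like, 0.893% of immune and 1.20% of epithelial cells, and in 0 of 88 iCAF-like cells (up to 3.41%). In other fibroblast-like cells it was 3.39% without Fib-Ctrl mouse 1, where 4.52% had at least 4 members, and in immune wells it was 0.350% without Fib-dZeb1 mouse 1, where likewise 0.350% had at least 4 members. Among telocyte-like cells with Acta2, 28.8% also had Tagln, against 17.0% of all telocyte-like cells. Des and Acta2 were found together in 28.7% of pericyte-like cells and in 0 of 188 telocyte-like cells (up to 1.60%).

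Within 1 mouse, Fib-dZeb1 mouse 1, the members' levels rose and fell together across the 48 pericyte-like cells. The Spearman correlation of the 45 gene pairs on a log2(CPM + 100) scale had a median of 0.597 and reached 0.835 for Acta2 and Myl9. In the 78 telocyte-like cells of that mouse the median was 0.229, and the highest value was 0.684 for Acta2 and Tpm1. Acta2 and Des correlated at 0.358 in pericyte-like and -0.257 in telocyte-like cells, where 11 of 78 cells had any Des. The points of each correlation share a plate and differ in depth, so these values are descriptions.

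Within the other fibroblast-like class, most cells had few contractile transcripts and a small number had many. The median cell took 0.0631% of its transcripts from the 10 genes, against 1.10% in pericyte-like, 0.208% in telocyte-like and 0.0482% in iCAF-like cells. In 22 of the 288 wells the share was over 1%, as it was in 48 of 87 pericyte-like, 13 of 188 telocyte-like and 0 of 88 iCAF-like cells. These 22 wells fell into groups by genes chosen after the values were seen. 9 wells had at least 2 transcripts of Lmod1, which encodes leiomodin, an actin filament nucleator of smooth muscle. 6 were from Fib-Ctrl mouse 1, 1 from Fib-Ctrl mouse 3 and 2 from Fib-dZeb1 mouse 2.

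Lmod1 was not particular to these wells and was also found in 43 of 87 pericyte-like wells. The Lmod1 wells were sought only among other fibroblast-like wells, which had not passed the pericyte gate on Rgs5 and Notch3. They had 0 transcripts of both gate genes and a median of 4.68% of transcripts from the members, with a range of 2.31 to 6.09%. Pooled, they had 13164 CPM of Acta2, 7192 of Tagln, 6855 of Myh11, 4372 of Myl9 and 4001 of Mylk, each above the pooled pericyte-like level of the same gene (4653, 1475, 780, 949 and 1205 CPM). Cnn1 reached 1027 CPM and was found in 8 of 9 wells, against 45.7 CPM and 15 of 87 wells in the pericyte-like class. Des was found in 2 of 9 wells, against 82 of 87. Hhip, a hedgehog-binding protein on the smooth muscle list, was found in 9 of 9 Lmod1 wells and in 0 of 87 pericyte-like wells, which were deeper. The pericyte-like levels are over all 87 wells, of which 48 had a share over 1%, whereas all 9 Lmod1 wells did. Since Lmod1 was chosen as the grouping gene after the values were seen, these differences carry no test.

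A second small group had the tropomyosins and Des without the smooth muscle members. 8 wells, all from Fib-dZeb1 mouse 2, had at least 5 transcripts each of Acta1 and Ckm, the actin and creatine kinase of skeletal muscle. 3 of them were classed as other fibroblast-like, of which 2 had a share over 1% and the third 0.0876%, and 5 had no class. Their pooled levels were 13105 CPM of Tpm1, 9517 of Tpm2 and 6680 of Des, while Acta2 was at 36.3 CPM and Tagln, Mylk, Actg2 and Cnn1 were at 0. Without these wells, Des in the other fibroblast-like cells of that mouse was 114 CPM instead of 150. The remaining 11 of the 22 wells belonged to neither group. 5 of them had 127 to 265 transcripts in all, so that 2 or 3 contractile transcripts made up the share. The highest of the 11, from Fib-Ctrl mouse 3, had a share of 7.17%, with 38.2 transcripts of Acta2 and 1 of Lmod1 in 2251.

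**Figure D3:**
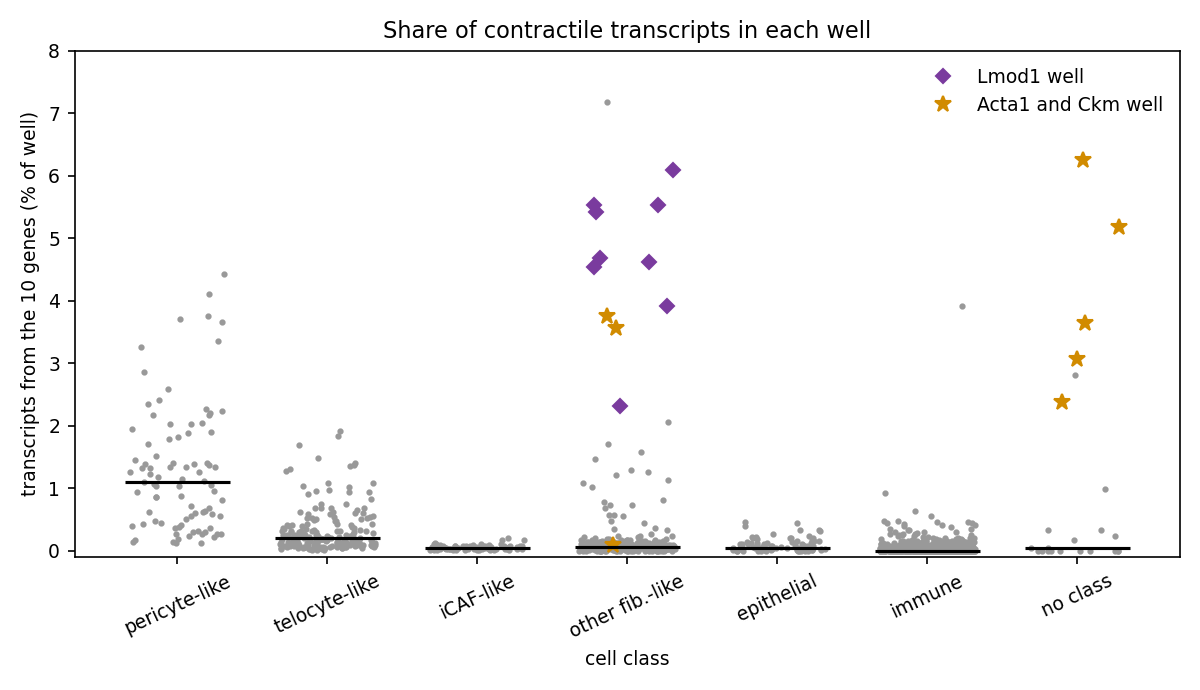
Share of each well's transcripts (%) that came from the 10 contractile genes, by cell class. Each grey point is 1 well, bars are medians, diamonds are wells with Lmod1 and stars wells with Acta1 and Ckm. The median is 1.10% in pericyte-like and 0.208% in telocyte-like wells, and the Lmod1 wells lie between 2.31 and 6.09%.

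**Figure D4:**
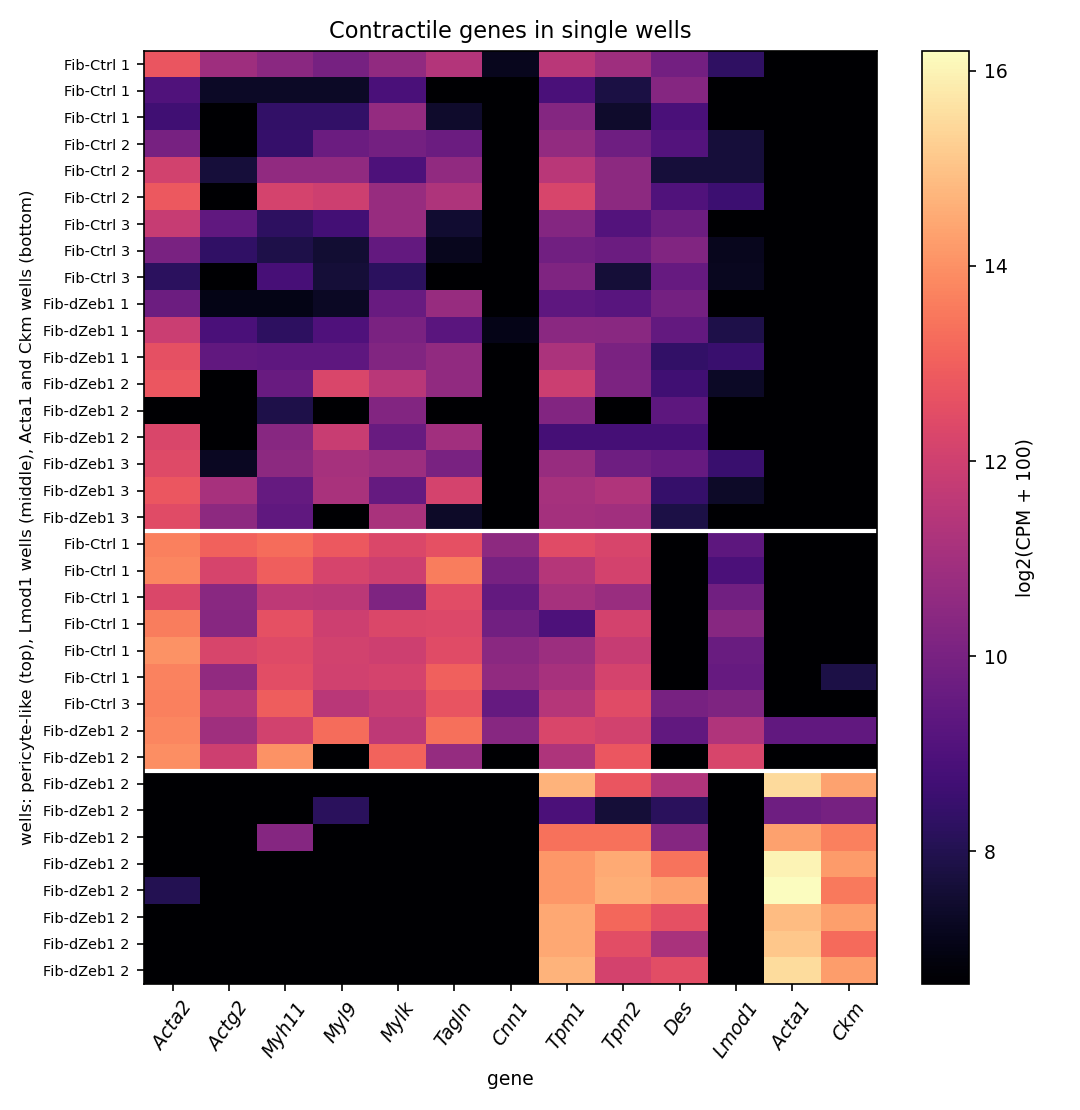
Levels of the 10 genes, Lmod1, Acta1 and Ckm in single wells as log2(CPM + 100), with 1 row per well. The top block has the 3 deepest pericyte-like wells of each mouse, the middle block the 9 Lmod1 wells and the bottom block the 8 wells with Acta1 and Ckm. Des is present in all pericyte-like wells shown and in 2 of the 9 Lmod1 wells.

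The share of contractile transcripts that came from each class varied between mice. Pericyte-like cells were 8.21, 13.6 and 15.6% of mesenchymal cells in Fib-Ctrl mouse 1 to 3 and 22.9, 3.85 and 17.6% in Fib-dZeb1 mouse 1 to 3. They supplied 18.8, 36.0 and 35.4% of the mesenchymal transcripts of the 10 genes in the Fib-Ctrl mice and 67.3, 28.2 and 70.3% in the Fib-dZeb1 mice. The Lmod1 wells supplied 27.6% of those transcripts in Fib-Ctrl mouse 1. The shares of cells depend on the sort and on which cells survived dissociation, so they are not read as shares in the tissue.

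The genotype comparison asked whether contractile genes differed between Fib-Ctrl and Fib-dZeb1 mice within a class. Transcripts were summed per mouse and class and tested by edgeR across all genes. The targeted gene was checked first. In telocyte-like cells, Zeb1 was at 91.2, 108 and 93.9 CPM in Fib-Ctrl mouse 1 to 3 and at 46.8, 18.3 and 69.5 CPM in Fib-dZeb1 mouse 1 to 3, so it was lower in each mouse of the deleted group and not at 0. In pericyte-like cells with at least 5 per mouse it was at 34.4 and 43.9 CPM in Fib-Ctrl mouse 1 and 3 and at 46.1 and 0 CPM in Fib-dZeb1 mouse 1 and 2. These 3′ reads need not cover the deleted part of the gene.

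In telocyte-like cells, the means of the actins, the myosin genes and Tagln were lower in Fib-dZeb1 mice, and those of the tropomyosins differed little. Mylk was at 324, 484 and 445 CPM in Fib-Ctrl mouse 1 to 3 and at 181, 140 and 107 CPM in Fib-dZeb1 mouse 1 to 3, with no overlap. The log2 fold change was -1.45 ± 0.28 (SE, n = 6 mice), and the adjusted p over all genes tested by edgeR was 0.707. Myl9 was at 264, 440 and 412 CPM against 190, 140 and 75.8 CPM (log2 fold change -1.33 ± 0.34). Tagln was at 329, 680 and 549 CPM against 228, 251 and 18.9 CPM (-1.52 ± 0.59). Acta2 was at 1265, 1500 and 1047 CPM against 1009, 606 and 297 CPM (-0.93 ± 0.39), where the lowest Fib-Ctrl value was just above the highest Fib-dZeb1 value. Actg2 was at 180, 384 and 80.3 CPM against 56.0, 91.7 and 6.32 CPM, which overlapped (-1.87 ± 0.66). For each of these genes the lowest value was that of Fib-dZeb1 mouse 3. The plate of that mouse came from another sequencing run, so run and genotype cannot be told apart in it. Tpm1 was at 1015, 1405 and 1325 CPM against 966, 1298 and 1310 CPM (-0.03 ± 0.22), and Tpm2 differed by 0.12 ± 0.26.

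After adjustment for all genes, edgeR called 0 of the 8 members tested in telocyte-like cells and 0 of 5614 genes (0%), and DESeq2 also called 0 members (0.0356% of all genes). With no filter beyond 1 count, edgeR called 4 members, Actg2, Myl9, Mylk and Tagln, and 0.182% of 14833 genes. At an unadjusted p under 0.05, 5 of the 8 were lower in Fib-dZeb1 mice (Acta2, Actg2, Myl9, Mylk and Tagln), against 1.69% of all genes. 5 of the 8 (Acta2, Myh11, Myl9, Mylk and Tagln) were lower in every Fib-dZeb1 mouse than in any Fib-Ctrl mouse, against 6.13% of all genes. The median log2 fold change of the 8 was -1.13 and that of all genes 0.00. The members were chosen with earlier results of these data known, so these counts are descriptions. Telocyte-like cells numbered 42, 9 and 39 in the Fib-Ctrl and 78, 11 and 9 in the Fib-dZeb1 mice, and their median depth was 12718 to 17072 transcripts. The summed level of the 6 smooth muscle genes outside the members moved in the same direction, from 102, 123 and 102 CPM to 66.0, 30.5 and 69.5 CPM, with 1 to 4 of the 6 at 0 in a mouse. Pericyte genes summed to 366, 426 and 450 CPM against 348, 501 and 443 CPM and overlapped. The part of other cells in these differences was not tested.

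Over all fibroblast-like cells (telocyte-like, iCAF-like and other fibroblast-like together) the same genes had lower values. Actg2 was at 153, 217 and 131 CPM in Fib-Ctrl and at 36.2, 30.6 and 4.17 CPM in Fib-dZeb1 mouse 1 to 3 (log2 fold change -2.49 ± 0.43). Tagln was at 286, 400 and 498 CPM against 157, 86.0 and 12.5 CPM (-2.04 ± 0.58), and Mylk at 207, 277 and 368 CPM against 117, 73.1 and 70.9 CPM (-1.62 ± 0.29). None of these 3 genes overlapped between the groups. Myh11 was at 165, 48.9 and 171 CPM against 49.2, 45.5 and 12.5 CPM (-1.70 ± 0.48), with Fib-Ctrl mouse 2 in the range of the Fib-dZeb1 mice. The lowest value of Actg2, Tagln, Mylk and Myh11 was again that of Fib-dZeb1 mouse 3, from the other sequencing run. Tpm1 differed by -0.23 ± 0.27 and Tpm2 by -0.37 ± 0.25. Des went the other way, at 5.55, 0 and 17.8 CPM against 12.5, 114 and 0 CPM, which rests on Fib-dZeb1 mouse 2.

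edgeR called 0 of the 9 members tested in fibroblast-like cells and 0 of 8730 genes (0%), whereas DESeq2 called Actg2 and Mylk, 2 of the 4 genes it called among the 8730 (0.0458%). At an unadjusted p under 0.05, 6 of the 9 were lower in Fib-dZeb1 mice (Acta2, Actg2, Myh11, Myl9, Mylk and Tagln), against 0.871% of all genes. 5 of the 9 (the same without Myh11) did not overlap and were lower, against 3.67% of all genes. These counts too are descriptions, given how the members were chosen. The telocyte-like share of the fibroblast-like cells was 23.5, 47.4 and 60.0% in Fib-Ctrl mouse 1 to 3 and 48.1, 8.80 and 64.3% in Fib-dZeb1 mouse 1 to 3, so the make-up of this class varied between mice. The smooth muscle genes outside the members summed to 103, 77.4 and 156 CPM against 66.4, 38.5 and 50.0 CPM. Without the Lmod1 wells and the wells with Acta1 and Ckm, the log2 fold change of Myh11 was -0.92 instead of -1.70, while Actg2 was at -2.22, Tagln at -1.84 and Mylk at -1.50. The filter on mitochondrial share moved these values too. With a plate-wise outlier filter, which kept 840 instead of 564 fibroblast-like cells, the log2 fold change was -0.67 for Tagln, -0.75 for Myh11 and -0.94 for Mylk, against -2.04, -1.70 and -1.62. In summed RNA, fewer cells with a gene and less RNA per cell cannot be told apart.

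**Figure D5:**
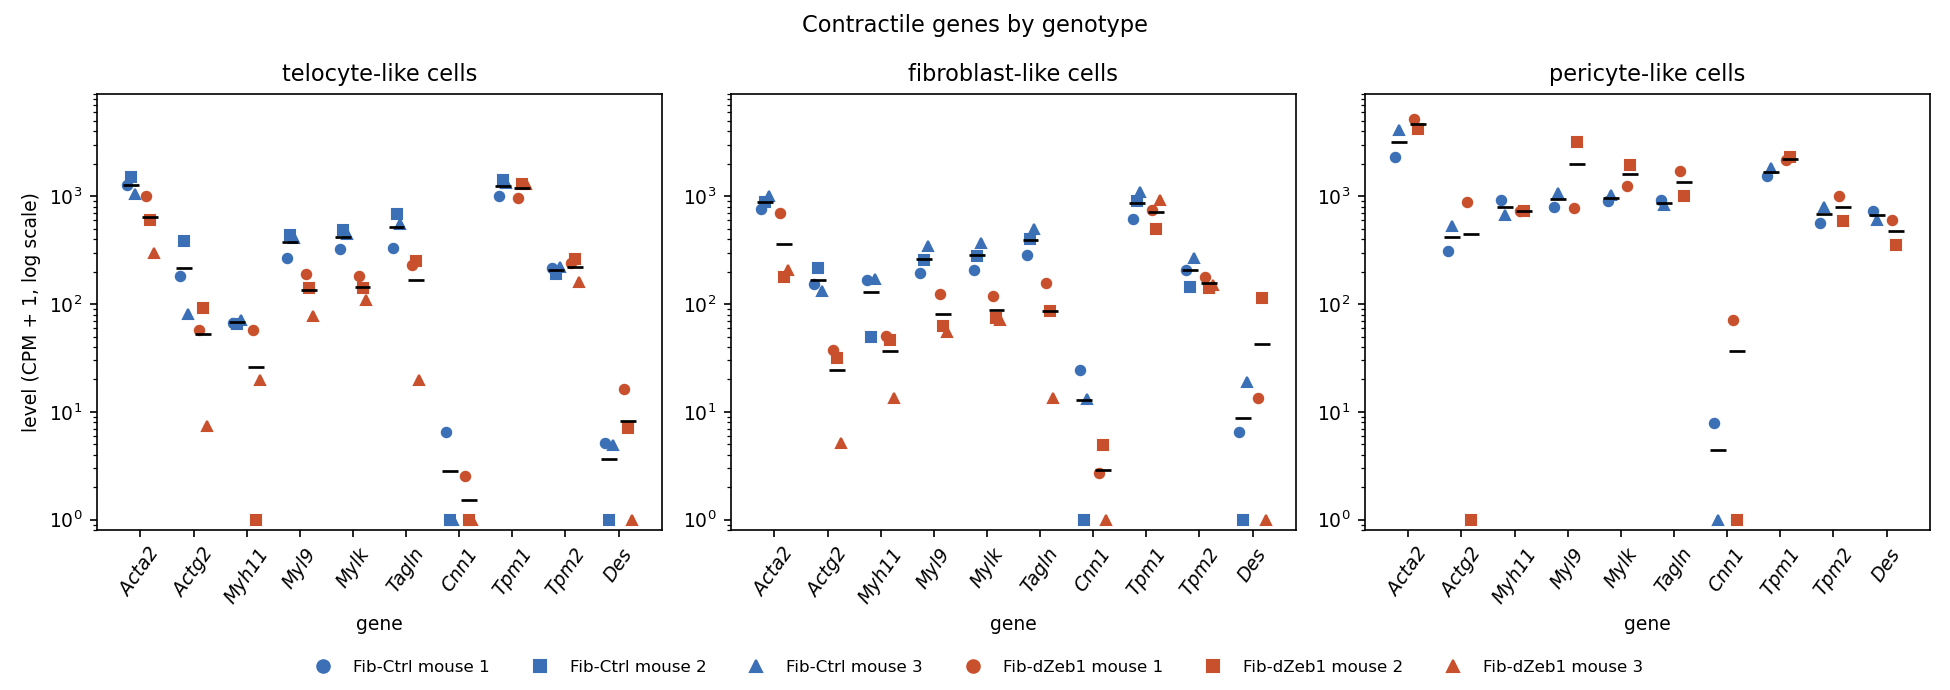
Level of each contractile gene per mouse, in CPM plus 1 on a log axis, in telocyte-like, fibroblast-like and pericyte-like cells. Each point is 1 mouse with at least 5 cells (blue, Fib-Ctrl; red, Fib-dZeb1; shape, mouse number), and bars are group means. Mylk in telocyte-like cells is at 324 to 484 CPM in Fib-Ctrl and 107 to 181 CPM in Fib-dZeb1 mice, and Tpm1 overlaps.

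The share of all transcripts that came from the 10 genes, 1 value per mouse, was compared by an exact two-sided permutation test, whose smallest possible p with 3 against 3 mice is 0.10. In telocyte-like cells it was 0.367, 0.515 and 0.415% in Fib-Ctrl and 0.294, 0.280 and 0.199% in Fib-dZeb1 mice (difference of means -0.174 percentage points, exact p = 0.10). The mean number of members per thinned telocyte-like cell was 1.79, 2.22 and 2.18 against 1.72, 1.55 and 0.556 (exact p = 0.10). Acta2 and Tagln were found together in 9.52, 22.2 and 17.9% against 8.97, 9.09 and 0% of telocyte-like cells (exact p = 0.10). The 0% is 0 of 9 cells and allows up to 33.3%. Averaged over all draws, the pair was in 14.9, 23.7 and 16.8% against 11.9, 8.38 and 0.688% of telocyte-like cells (exact p = 0.10). In fibroblast-like cells the summed share was 0.261, 0.312 and 0.391% against 0.211, 0.123 and 0.144% (exact p = 0.10). Acta2 and Tagln were found together in 9.04, 10.5 and 14.1% against 5.19, 3.31 and 0% of these cells (exact p = 0.10). The number of members per fibroblast-like cell overlapped, at 1.31, 1.37 and 1.86 against 1.36, 0.645 and 0.357 (exact p = 0.20), while averaged over all draws it did not overlap, at 1.34, 1.49 and 1.81 against 1.32, 0.742 and 0.903 (exact p = 0.10). None of these values can pass a threshold of 0.05 in this design.

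In pericyte-like cells, where 2 mice a group had at least 5 cells, no member was lower or higher at an unadjusted p under 0.05, against 0.557 and 0.73% of all genes. 4 of the 9 members tested (Acta2, Mylk, Tagln and Tpm1) were higher in both Fib-dZeb1 mice than in either Fib-Ctrl mouse, against 12.5% of all genes, and 1 (Des) was lower, against 15% of all genes. The median log2 fold change of the 9 was 0.40 and that of all genes -0.02. Acta2 was at 2327 and 4119 CPM in Fib-Ctrl and 5268 and 4175 CPM in Fib-dZeb1 mice (log2 fold change 0.56 ± 0.44), and Mylk at 902 and 1034 against 1258 and 1970 CPM (0.72 ± 0.46). Des was at 730 and 608 against 607 and 351 CPM (-0.42 ± 0.48). edgeR called 0 of 9 members and 0 of 2875 genes (0%), and DESeq2 called 0 members (0.0348% of all genes). Without Fib-dZeb1 mouse 1, which leaves the 5 cells of Fib-dZeb1 mouse 2 as the only sample of that group, edgeR called 2 members, Myl9 (higher) and Actg2 (at 0 CPM in that sample), and 3.64% of 3546 genes. When all mesenchymal cells were summed, edgeR called 0 of 9 members and 0 of 8995 genes (0%), and DESeq2 called 0 members (0% of all genes). At an unadjusted p under 0.05, 0 members were lower or higher, against 0.823 and 0.623% of all genes. Myh11 was lower in every Fib-dZeb1 mouse than in any Fib-Ctrl mouse (1 of the 9, against 3.66% of all genes). 0 members were higher in every Fib-dZeb1 mouse, against 2.65%. The difference of the genotype effect between pericyte-like and telocyte-like cells was tested by edgeR in the 4 mice with at least 5 cells of both classes. It passed the adjusted threshold for 0 of the 9 members (adjusted p = 1 for each) and for 2 of the 6822 genes tested. For 3 members (Des, Myl9 and Mylk) the unadjusted p was under 0.05, as it was for 2.14% of all genes. The effect in telocyte-like cells is therefore not shown to differ from that in pericyte-like cells.

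Of 50 other genes of the contractile apparatus and its control, 48 were listed on a plate, and 28 of these had their highest level in pericyte-like cells and 8 in telocyte-like cells. The 6 with the highest pericyte-like level were Actb, Cald1, Actg1, Myl6, Flna and Tpm4. Cald1, caldesmon, which blocks myosin on actin, was at 1898 ± 559 CPM in pericyte-like (n = 4), 1127 ± 213 in telocyte-like (n = 6) and 280 ± 101 CPM in iCAF-like cells (n = 3). Flna, the actin crosslinker filamin A, was at 1277 ± 150 against 744 ± 126 and 367 ± 110 CPM in the same order, and Tpm4, a non-muscle tropomyosin, at 1260 ± 324 against 728 ± 87.6 and 421 ± 173 CPM. Myl6, the essential light chain, was at 1662 ± 455 against 1062 ± 137 and 946 ± 151 CPM. The cytoplasmic actins did not follow this order. Actb and Actg1 were highest in immune wells, at 10275 ± 1102 and 9086 ± 1516 CPM (n = 6), against 4764 ± 884 and 1858 ± 539 in pericyte-like cells (n = 4).

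Between genotypes, edgeR called 0 of the 38 genes of this list tested in telocyte-like cells and 0 of the 40 tested in fibroblast-like cells. Pdlim3, an actin-associated LIM protein, had a log2 fold change of -1.67 ± 0.51 in telocyte-like cells and Myh10, a non-muscle myosin heavy chain, one of -0.68 ± 0.26, neither of which passed the adjusted threshold. The median log2 fold change of the list was 0.01 in telocyte-like and -0.10 in fibroblast-like cells.

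The 10 genes outside all lists whose level was most like that of the members were Sema6d, Rgs16, Mrvi1, Speg, Ednra, Lbh, Tmem204, Gm13889, Arhgef17 and Filip1l. Likeness was Pearson's correlation of log2(CPM + 10) with the mean of the 10 members, each centred and scaled, over 23 sums of 1 mouse and 1 class with at least 10 cells, among 7083 genes. The sums share plates and classes, so it is a description. It was 0.871 for Sema6d and 0.845 for Filip1l. Ednra, the endothelin receptor type A, was at 660 CPM in pericyte-like, 204 in telocyte-like and 61.0 in iCAF-like sums. Rgs16, a regulator of G-protein signalling, was at 644, 53.6 and 10.2 CPM. Mrvi1, a substrate of cGMP kinase in smooth muscle, was at 221, 49.4 and 2.01 CPM. Of the members, Mylk and Tagln were most like the other 9 (0.952 and 0.951), and Cnn1 (0.584), Des (0.610) and Tpm1 (0.673) least.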

How the data were processed

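The sorted cells were sequenced by SORT-seq, which tags the 3′ end of each transcript with a unique molecular identifier. Per the study's methods and the labels, reads were aligned with bwa to the GRCm38 transcriptome and counted by the provider's script, and how reads shared by near-identical genes were assigned is not given in the sources used here, so actin and tropomyosin levels are partly uncertain. The deposited files hold, per well, counts of barcodes and estimated counts of transcripts, which the authors' provider corrected for barcode collisions. The estimated counts were used for levels and, summed per mouse and class and rounded to whole numbers, for tests, and barcode counts were used for thinning. Spike-in rows (7.85 to 18.6% of a plate's counts) were left out. Plates held 1575726 to 3699058 transcripts, and the plate of Fib-dZeb1 mouse 3 came from another sequencing run. Wells on each plate were filtered and classed by marker genes, and the iCAF-like wells were counted with the fibroblast-like wells. No doublet caller was run.

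For mice with at least 5 cells, sums entered the quasi-likelihood test of edgeR 4.0.16 after filterByExpr and TMM scaling, with Benjamini-Hochberg adjustment over all genes tested and a threshold of 0.05. DESeq2 1.42.0 was an alternative, as were no filter on low counts, barcode counts, another mitochondrial filter, a stricter pericyte gate and leaving out each mouse. Fits without the Lmod1, Acta1 and Ckm wells and the fit of the difference between classes were added after seeing the data, as was the mean over all thinning draws. Single values per mouse were compared by exact permutation. Replicates are samples in accession order, and p-values measure the spread between these plates. The members, gene lists and marker lists were chosen with earlier results of these data known. All 10 members are named. Of the other contractile genes those named are the 6 highest in pericyte-like cells, any called between genotypes and, named after their values were seen, Pdlim3 and Myh10. 1 further gene of that list is not reported here. Genes like the members are the 10 with the highest correlation among genes with a mean of at least 20 CPM.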

Additional observations from a re-analysis of the deposited data

Results flagged for a closer look

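Signal of 3 members stood out in wells that enter no comparison between classes. In the 13 wells of no class of Fib-dZeb1 mouse 2, Des was at 7318 CPM (163 transcripts), Tpm1 at 10781 CPM (240 transcripts) and Tpm2 at 10060 CPM (224 transcripts). In the wells of no class of the Fib-Ctrl mice, the highest values were 0, 508 and 0 CPM. 5 of these 13 wells were the wells with Acta1 and Ckm described above, and in the 8 wells without them Des, Tpm1 and Tpm2 had 1 transcript each. These values come from 1 plate.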

How the results depend on the processing

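Most results that were followed kept their direction and their side of the threshold under the alternatives run, and none of them changed sign. Fold changes were followed only for members with an unadjusted p under 0.05 by edgeR in the report. Those of pericyte-like cells, of Tpm1, Tpm2 and Des, and of Myh11 in telocyte-like cells were therefore not followed. Counts of called members moved in 3 cases, each against 0 in the report. DESeq2 with its size factors called 2 in fibroblast-like cells (4 of 8730 genes in all), Actg2 (log2 fold change -2.54, adjusted p = 0.000279) and Mylk (-1.61, adjusted p = 0.0173). With no filter beyond 1 count, edgeR called 4 in telocyte-like cells (27 of 14833 genes in all), Actg2, Myl9, Mylk and Tagln, with adjusted p of 0.0092 to 0.0322. The cause was not tested. Leaving out 1 mouse gave 0 to 2 called members in pericyte-like cells, the 2 (Myl9 and Actg2) without Fib-dZeb1 mouse 1, where a single Fib-dZeb1 sample is assumed to vary like the others and 129 of 3546 genes were called. Leaving out 1 mouse gave 0 called members in each of the other sets, differences in summed share of -0.207 to -0.133 percentage points in telocyte-like and -0.192 to -0.127 in fibroblast-like cells, and a pericyte-like to telocyte-like ratio of 3.26 to 4.08. Single mice moved some values by over 1.5 times. Acta2 was at -1.46 in telocyte-like and -2.17 in fibroblast-like cells without Fib-dZeb1 mouse 1 and at -0.57 in telocyte-like cells without Fib-dZeb1 mouse 3 (log2 fold changes), and the difference in members per telocyte-like cell was -0.431 without Fib-dZeb1 mouse 3 instead of -0.789. The outlier filter on mitochondrial share moved several values by over 1.5 times. In fibroblast-like cells it gave log2 fold changes of -0.67 for Tagln (-2.04 in the report), -0.59 for Acta2 (-1.25), -0.75 for Myh11 (-1.70), -0.92 for Myl9 (-1.60) and -0.94 for Mylk (-1.62), and in telocyte-like cells -0.99 for Tagln (-1.52) and -0.85 for Myl9 (-1.33). It gave differences of -0.102 instead of -0.162 percentage points in the fibroblast-like summed share (exact p = 0.10), of -4.53 instead of -8.37 in Acta2 and Tagln co-detection in fibroblast-like (exact p = 0.10) and -4.20 instead of -10.5 in telocyte-like cells (exact p = 0.20), and of -0.366 instead of -0.725 members per fibroblast-like (exact p = 0.50) and -0.363 instead of -0.789 per telocyte-like cell (exact p = 0.30). With 2000 barcodes per cell the fibroblast-like co-detection difference was -14.5 (exact p = 0.10). Averaged over all draws of 1000 barcodes, the co-detection differences were -8.44 and -11.5 percentage points and the differences in members -0.558 and -0.746, in fibroblast-like and telocyte-like cells (exact p = 0.10 each). Without the Lmod1, Acta1 and Ckm wells the fibroblast-like summed difference was -0.129 (exact p = 0.20). No paired analysis was possible because the labels give no replicate numbers that the groups share. The 3 to 5 pericyte-like cells of 3 mice and 9 to 11 telocyte-like cells of 3 mice limit the precision.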
